A study of Mus musculus with 16 samples.

Results

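The genes described here are 10 enzymes, receptors and effectors of nitric oxide (NO) and cyclic GMP (cGMP) signaling, namely *Nos1*, *Nos3*, *Gucy1a1*, *Gucy1b1*, *Prkg1*, *Vasp*, *Pde2a*, *Pde3b*, *Pde5a* and *Pde9a*. They were taken by symbol from a count table of 55471 gene identifiers, all 10 were found, and all 10 passed the filter on low counts that left 14331 genes for testing. The counts come from bulk mRNA sequencing of skeletal muscle of 16 male mice. Of these, 10 were labelled heterozygous (Npr1+/-, from the B6.129-Npr1tm1Gar/J line backcrossed to C57BL/6J) and 6 were labelled wildtype littermates (Npr1+/+), and per the series' design text all were 12-week-old mice given a high-fat diet (60% of kcal from lipids) that lasted 12 weeks. *Npr1* encodes GCA, the receptor of atrial natriuretic peptide (ANP). The deletion is carried by every tissue, the labels do not say which muscle was sequenced, and the mice of both labels shared 4 cages.

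NO is made from arginine by NO synthases and binds soluble guanylyl cyclase, a dimer of an alpha and a beta subunit that turns GTP into cGMP. cGMP activates a protein kinase, and phosphodiesterases (PDEs) break it down. GCA is itself a guanylyl cyclase of the cell membrane, so the 10 genes make up the second, NO-driven source of the same messenger and the machinery downstream that both sources share. In muscle, the neuronal NO synthase is known to sit at the fiber membrane with the dystrophin complex, whereas the endothelial NO synthase is a gene of vessels.

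Library totals ran from 15832624 to 59682677 counts in the mice labelled Npr1+/- and from 15273472 to 29630298 in those labelled Npr1+/+. Body weight was 43.6 ± 3.79 g (SD, n = 10) and 47.4 ± 4.69 g (SD, n = 6), respectively. *Npr1* itself was at 13.6 ± 3.87 CPM (CPM is the TMM-normalized count scaled to a common library size; SD, n = 10) under the Npr1+/- label and at 12.2 ± 1.05 CPM (SD, n = 6) under the Npr1+/+ label, so the level of the targeted gene did not separate the labels, and every direction below is between mice as labelled. Markers of muscle fibers summed to between 103742 and 168987 CPM, with *Pvalb* at the highest level per length (19985 ± 6437 RPKM, reads scaled to transcript length and library total; SD, n = 16). Of 6 heart and liver markers, *Myl7* was at 0 in every library, and the highest per length was the liver gene *Alb*, at 57.6 CPM in Npr1+/+ replicate 5 and at no more than 1.20 CPM in any other mouse. The 6 markers summed to 0.536 to 7.28 CPM under the Npr1+/- label and 0.611 to 69.7 CPM under the Npr1+/+ label, so results are also given without Npr1+/+ replicate 5. The libraries also differed in how far long transcripts stood above short ones, which is described with the genes it moves with.

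The soluble cyclase genes lie side by side on mouse chromosome 3, the chromosome of *Npr1*. *Gucy1a1* (ENSMUSG00000033910) runs from 82092427 to 82145787 and *Gucy1b1* (ENSMUSG00000028005) from 82032006 to 82074685, both on the minus strand of GRCm38, with 17742 bases between them. They are 8.30 and 8.38 Mb from *Npr1*, and *Pde5a* (ENSMUSG00000053965, 122728947 to 122859374, plus strand) is 32.3 Mb from it. The other 7 members are on other chromosomes. On chromosome 5 are *Nos1* (ENSMUSG00000029361, 117781032 to 117958840, plus strand) and *Nos3* (ENSMUSG00000028978, 24364810 to 24384327, plus strand). On chromosome 7 are *Pde2a* (ENSMUSG00000110195, 101421691 to 101512814, plus strand), *Pde3b* (ENSMUSG00000030671, 114415281 to 114539251, plus strand) and *Vasp* (ENSMUSG00000030403, 19256929 to 19271817, minus strand). *Pde9a* (ENSMUSG00000041119) is on chromosome 17 from 31386210 to 31476159 on the plus strand, and *Prkg1* (ENSMUSG00000052920) on chromosome 19 from 30564489 to 31765033 on the minus strand.

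The stretches just upstream of 4 members are shown because these genes bear on the patterns described below: both cyclase subunits are neighbors that form 1 enzyme, *Prkg1* is the kinase that answers to their product, and *Vasp* was the steadiest of the 10 across mice. A RefSeq promoter (250 bases before to 50 after a start, GRCm38.p6) was matched for 7 of the 10 members, and not for *Nos3*, *Pde3b* or *Pde9a*. Only bases outside annotated exons are printed, on the strand of the gene, and capitals mark each GC box (GGGCGG) and CCAAT box found on either strand.
Gucy1b1, chr3:82074712-82074961 (minus): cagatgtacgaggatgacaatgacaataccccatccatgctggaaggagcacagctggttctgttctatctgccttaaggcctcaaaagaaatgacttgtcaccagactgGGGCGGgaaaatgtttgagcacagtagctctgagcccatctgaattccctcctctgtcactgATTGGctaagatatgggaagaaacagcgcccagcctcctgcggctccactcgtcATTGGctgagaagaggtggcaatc
Gucy1a1, chr3:82145790-82145900 (minus): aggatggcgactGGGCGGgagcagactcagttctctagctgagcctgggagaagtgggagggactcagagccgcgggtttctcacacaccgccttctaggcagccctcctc
Prkg1, chr19:31765034-31765283 (minus): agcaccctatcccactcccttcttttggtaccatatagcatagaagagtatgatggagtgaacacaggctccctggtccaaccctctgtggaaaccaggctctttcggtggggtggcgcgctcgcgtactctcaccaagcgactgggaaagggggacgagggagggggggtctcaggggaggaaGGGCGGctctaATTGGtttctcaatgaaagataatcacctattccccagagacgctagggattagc
Vasp, chr7:19271855-19272104 (minus): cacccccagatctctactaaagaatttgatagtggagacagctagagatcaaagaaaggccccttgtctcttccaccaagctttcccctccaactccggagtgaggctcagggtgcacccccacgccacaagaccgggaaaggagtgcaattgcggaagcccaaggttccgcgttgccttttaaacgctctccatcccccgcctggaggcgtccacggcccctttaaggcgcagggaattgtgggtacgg
The stretches of *Gucy1b1*, *Gucy1a1* and *Prkg1* each held 1 GC box. The table has 1 further RefSeq start each for *Gucy1a1* (chr3:82145074-82145323, no GC box) and *Prkg1* (chr19:31664371-31664620, a GC box and no CCAAT box), which are not printed. A GC box was found in 32.7% of all 32851 promoters in the table over the same 250 bases. *Gucy1b1* held 2 CCAAT boxes and *Prkg1* held 1 (33.8% of all promoters). *Vasp* held neither. The TATA box (TATAAA, 12.4% of promoters), the cAMP response element (TGACGTCA, 1.55%) and the CArG box of smooth muscle genes (1.47%) were not found in any of the 4. E-boxes (CANNTG, 66.2%), which can overlap other motifs and are not in capitals, were found in the printed bases 3 times for *Gucy1b1* and 1 time for *Vasp*. The whole 250 bases of *Gucy1a1*, of which 111 are printed, held 1 more, and the shares of all promoters are over 250 bases.

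All 10 genes were detected in every mouse, at levels that differed widely. Per transcript length, the levels averaged over 16 mice were 9.32 ± 1.19 RPKM (SD, n = 16) for *Vasp*, an actin regulator and substrate of the cGMP kinase, and 6.31 ± 6.00 RPKM (SD, n = 16) for *Nos1*, the neuronal NO synthase. Next came *Gucy1b1* (3.32 ± 0.630 RPKM, SD, n = 16), the beta subunit of the cyclase, *Prkg1* (3.18 ± 1.08 RPKM), which encodes cGMP-dependent protein kinase I, *Nos3* (3.16 ± 1.26 RPKM), the endothelial NO synthase, and *Gucy1a1* (2.31 ± 0.565 RPKM), the alpha subunit. The median of all genes tested was 2.52 RPKM. The 4 PDE genes lay below all of these in RPKM, at 0.495 ± 0.20 for *Pde9a*, 0.437 ± 0.153 for *Pde3b*, 0.403 ± 0.146 for *Pde5a* and 0.163 ± 0.0871 for *Pde2a* (SD, n = 16 each).

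Several neighbors in this order did not differ beyond the spread between mice. *Vasp* was above *Nos1* in 13 of 16 mice, but *Nos1* was above *Gucy1b1* in only 10 of 16, with a log2 ratio of 0.48 ± 1.10 (SD, n = 16). *Gucy1b1* was above *Prkg1* in 8 of 16 mice and *Prkg1* above *Nos3* in 9 of 16. *Nos3* exceeded *Gucy1a1* in 13 of 16 mice. The step from *Gucy1a1* down to *Pde9a* held in 16 of 16 mice, as did that from *Pde5a* to *Pde2a*, while *Pde9a*, *Pde3b* and *Pde5a* could not be ordered (10 of 16 and 8 of 16 mice in the direction of the means).

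**Figure D1:**
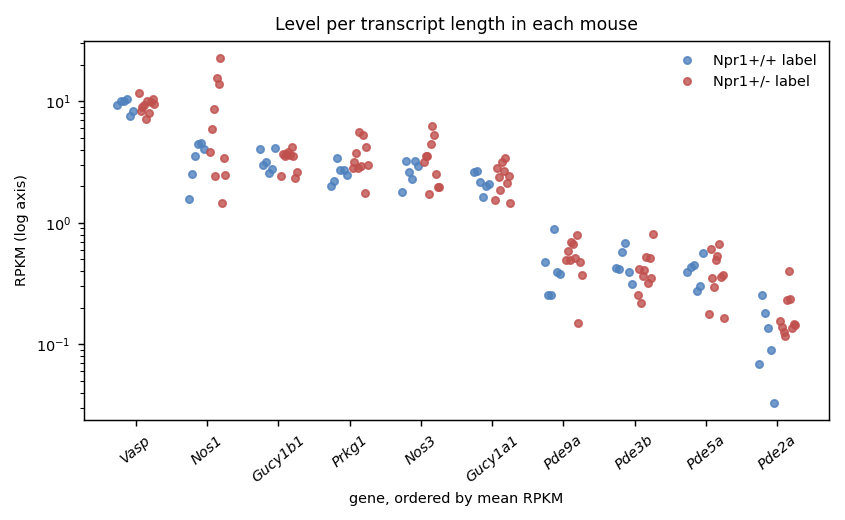
Each point is the RPKM of 1 gene in 1 mouse on a log axis, with the genes ordered by their mean and the mice colored by *Npr1* label (10 Npr1+/-, 6 Npr1+/+). *Nos1* spans the widest range, from 1.46 to 22.7 RPKM, and the 4 PDE genes lie below the other 6 in their means.

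*Nos1* varied between mice more than nearly any other gene. In CPM, the mice labelled Npr1+/- had a lowest value of 16.2, a median of 54.0 and a highest of 253, and those labelled Npr1+/+ had 17.6, 42.6 and 50.9. The highest values were those of Npr1+/- replicates 7 (253 CPM), 5 (174 CPM), 6 (154 CPM) and 3 (96.7 CPM). The labels overlapped, since 5 of 10 Npr1+/- mice were above every Npr1+/+ mouse and 1 was below them all. The 15.6-fold range over 16 mice gave a standard deviation of 1.15 in log2 CPM, which was above that of 99.3% of the genes tested (median over all genes 0.38).

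The endothelial NO synthase, *Nos3*, had 7.14, 13.9 and 25.7 CPM as the lowest, median and highest values under the Npr1+/- label and 7.48, 11.4 and 13.4 CPM under the Npr1+/+ label. Its highest mice were Npr1+/- replicates 6 (25.7 CPM), 7 (21.6 CPM) and 5 (18.5 CPM), the mice that were also highest for *Nos1*. Here too, 5 of 10 Npr1+/- mice stood above and 1 below the whole Npr1+/+ range.

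For the cyclase, *Gucy1a1* ranged over 10.1, 16.8 and 23.9 CPM (lowest, median, highest) under the Npr1+/- label and over 11.3, 14.8 and 18.5 CPM under the Npr1+/+ label. *Gucy1b1* ranged over 9.13, 14.0 and 16.5 CPM and over 10.02, 12.1 and 16.2 CPM, respectively. Both genes overlapped between the labels, with 4 and 1 of the Npr1+/- mice above all Npr1+/+ mice and 2 below them for each gene. The kinase gene *Prkg1* had 19.6, 33.9 and 61.8 CPM under the Npr1+/- label and 22.1, 28.5 and 38.0 CPM under the Npr1+/+ label, and Npr1+/- replicates 5 (61.8 CPM) and 7 (58.6 CPM) were the highest.

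*Vasp* was the steadiest of the 10. It had 18.9, 24.8 and 30.6 CPM under the Npr1+/- label and 19.9, 25.2 and 27.4 CPM under the Npr1+/+ label, a 1.62-fold range over all mice, and only 7.04% of the genes tested had a lower standard deviation. Unlike *Nos1*, *Vasp* was at its lowest in Npr1+/- replicate 5 (18.9 CPM), and it was at 21.1 CPM in replicate 7.

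Among the PDE genes, *Pde5a*, which encodes a cGMP-specific enzyme and is the target of sildenafil, had 1.64, 3.58 and 6.64 CPM under the Npr1+/- label and 2.71, 4.07 and 5.54 CPM under the Npr1+/+ label. *Pde3b*, whose enzyme degrades cAMP, is inhibited by cGMP and is a known gene of fat cells, had 2.01, 3.52 and 7.37 CPM against 2.89, 3.86 and 6.19 CPM. *Pde9a*, which encodes a cGMP-specific enzyme of high affinity, had 0.536, 1.80 and 2.82 CPM against 0.898, 1.37 and 3.13 CPM. *Pde2a*, whose enzyme is stimulated by cGMP, had 0.729, 0.897 and 2.48 CPM against 0.204, 0.695 and 1.56 CPM. Labels overlapped for all 4 genes. The counts behind *Pde2a* were only 5 to 87 per library and those behind *Pde9a* 9 to 145, against 273 to 10595 for *Nos1*.

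**Figure D2:**
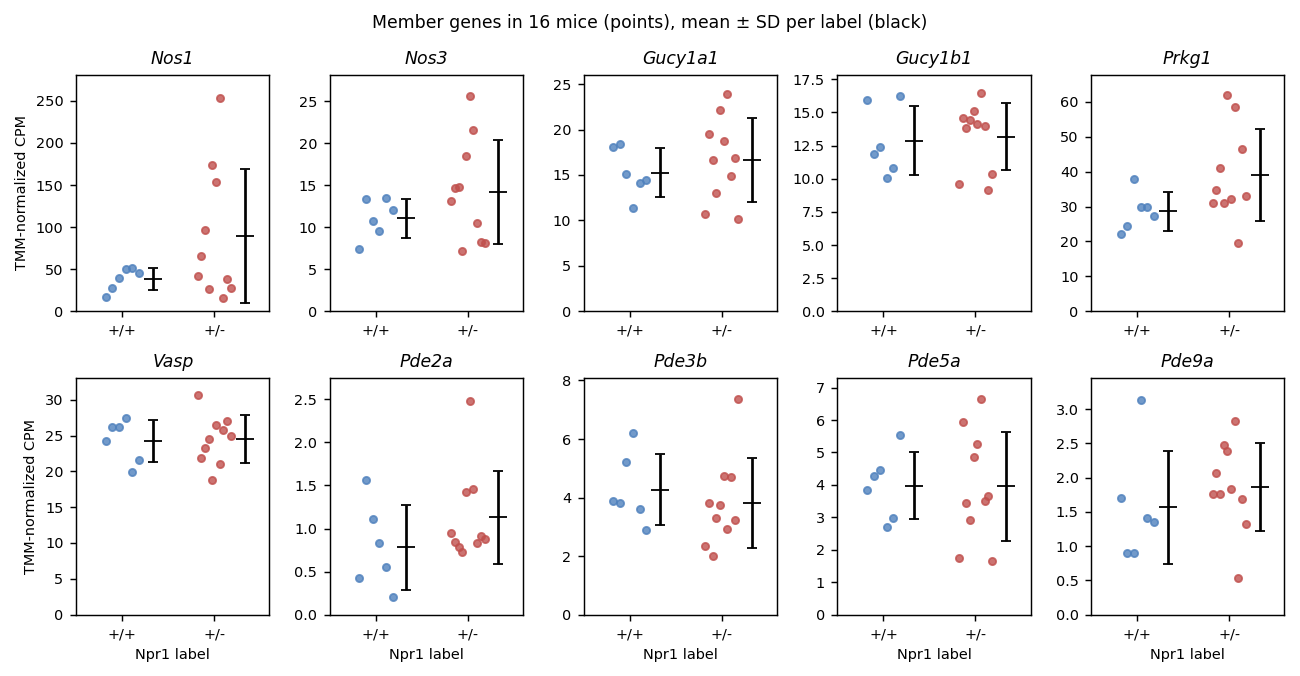
Each point is the TMM-normalized CPM of 1 mouse (6 labelled Npr1+/+, 10 labelled Npr1+/-) and the black bars give the mean ± SD of each label on a linear axis from 0. The labels overlap in all 10 panels, and the 3 highest *Nos1* values (154, 174 and 253 CPM) are mice labelled Npr1+/-.

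As 1 part of a wider study of ANP/GCA deficiency and insulin resistance, the muscle transcriptome was compared between the labels. For these 10 genes, 0 passed an adjusted p-value of 0.05 between the labels, where 0% of all 14331 genes did (edgeR's quasi-likelihood test with cage and body weight as covariates, Benjamini-Hochberg adjustment over all genes). DESeq2 (0.0419% of all genes called) and limma-voom (0%) also called 0 of the 10, and so did edgeR without Npr1+/+ replicate 5 (share of all genes not reported here). At an unadjusted p-value under 0.05, 0 of 10 members stood against 1.05% of all genes, and for 0 of 10 did the labels not overlap, against 0.00698% of all genes. The p-values measure the spread between mice, each of which gave 1 library.

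The fitted values, with cage and body weight as covariates, were as follows. *Vasp* had a log2 fold change (Npr1+/- minus Npr1+/+) of 0.03 (SE 0.15, 95% interval -0.29 to 0.34), the narrowest of the 10. *Gucy1a1* and *Gucy1b1* had log2 fold changes of 0.15 (SE 0.20, -0.28 to 0.58) and 0.16 (SE 0.18, -0.22 to 0.54). *Prkg1* was at 0.27 (SE 0.24, -0.23 to 0.77). *Nos1*, at 0.10, had an interval from -0.82 to 1.03 (SE 0.44), and *Nos3* was at 0.09 (SE 0.26, -0.47 to 0.65). Of the PDE genes, *Pde5a* was at 0.03 (SE 0.29, -0.59 to 0.65), *Pde3b* at -0.08 (SE 0.30, -0.72 to 0.56) and *Pde9a* at -0.05 (SE 0.28, -0.65 to 0.55). The farthest estimate from 0 was that of *Pde2a*, at 0.69 (SE 0.42, -0.20 to 1.57, unadjusted p = 0.113 from edgeR), and its mean was higher in Npr1+/- mice in 4 of 4 cages. Some of these cages held only 1 mouse of a label, and its counts were as low as 5. The other members were higher in Npr1+/- mice in 1 (*Vasp*) to 3 of 4 cages. The adjusted p-value of each member was 1 (edgeR, Benjamini-Hochberg). For 8 of the 10, all but *Nos1* and *Pde2a*, the interval lay within a log2 fold change of -1 to 1. Without Npr1+/+ replicate 5, the estimates that moved most were those of *Nos1* (0.73) and *Nos3* (0.33), and *Vasp* (-0.13) and *Pde9a* (0.05) changed sign. Without covariates, the differences of mean log2 CPM of *Nos1* (0.77), *Prkg1* (0.39) and *Nos3* (0.26) were larger than these estimates and did not exceed the spread between mice (two-sided exact permutation tests over 8008 splits, p = 0.203, 0.0962 and 0.354). The median over the members was 0.10, against -0.0060 over all genes tested.

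**Figure D3:**
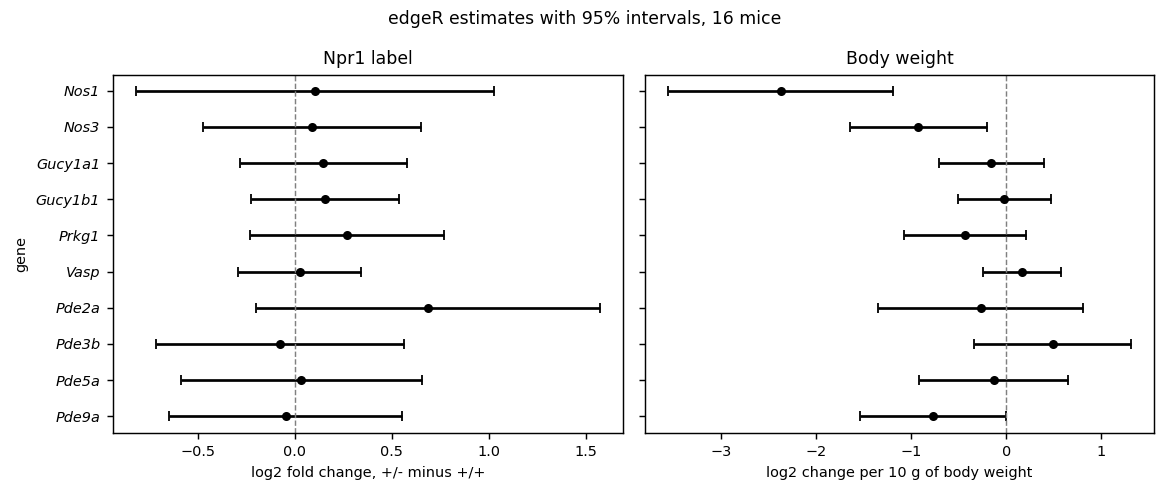
Points are edgeR estimates from the 16 mice and bars their 95% intervals: on the left the log2 fold change between the labels, on the right the log2 change per 10 g of body weight. All 10 intervals on the left include 0, and on the right those of *Nos1*, *Nos3* and *Pde9a* do not.

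The ratio of the cyclase subunits was examined within each library, where it needs no scaling between libraries. Counts per length of *Gucy1a1* over *Gucy1b1* gave a ratio from 0.503 to 1.04 with a median of 0.685, and the alpha transcript was the higher one in only 1 of 16 mice. That order rests on the deposited gene lengths, 6968 bases for *Gucy1a1* and 3927 for *Gucy1b1*. Before division by length, the total counts over all mice were 6352 for *Gucy1a1* and 5023 for *Gucy1b1*. The mean log2 ratio was -0.51 ± 0.31 (SD, n = 10) under the Npr1+/- label and -0.57 ± 0.27 (SD, n = 6) under the Npr1+/+ label. The difference of 0.06 did not exceed the spread between mice (two-sided exact permutation test over 8008 splits, p = 0.692, and p = 0.667 when labels were permuted within cages).

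Other genes of the pathway also did not separate the labels. In 4 lists, 66 genes were listed, 65 were found and 58 were tested, of which 0 passed the adjusted threshold in edgeR's test of the label (0% of all genes) and 1 had an unadjusted p-value under 0.05, as 1.05% of all genes did, so the count is no result about these lists. That gene was *Hspb6*, a small heat shock protein phosphorylated by cyclic nucleotide kinases, at 1288 ± 105 CPM (SD, n = 10) against 1583 ± 304 CPM (SD, n = 6) and a log2 fold change of -0.35 (SE 0.15, unadjusted p = 0.0339 and adjusted p = 1 from edgeR). The median log2 fold change over the 58 genes was -0.01. None of the 12 other NO and cGMP enzymes and transporters tested had an unadjusted p-value under 0.05, with the cGMP exporter *Abcc4* at 0.28 (SE 0.34), the second alpha subunit gene *Gucy1a2* at 0.22 (SE 0.42), and the phosphodiesterases *Pde10a* at -0.30 (SE 0.29) and *Pde1b* at -0.27 (SE 0.26). Of the genes in this list, *Pde6d*, a prenyl-binding protein first described with the phosphodiesterase of the eye, was at the highest level per length (16.7 ± 4.69 RPKM, SD, n = 16).

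Among 12 tested targets and partners of the kinase, the values were 0.25 (SE 0.34) for *Mrvi1*, whose product is a kinase substrate at calcium stores, 0.12 (SE 0.34) for the myosin phosphatase subunit *Ppp1r12b*, and -0.64 (SE 0.32) for *Pln*, the inhibitor of the calcium pump. Of 16 tested genes of NO supply and removal, the arginine transporter *Slc7a1* was at 0.55 (SE 0.41), *Gch1*, which makes the synthase cofactor, at 0.31 (SE 0.23), *Asl*, which forms arginine, at -0.32 (SE 0.18) and the thioredoxin *Txn1* at -0.19 (SE 0.17). The NO scavenger myoglobin (*Mb*) led this list in level, at 5175 ± 1657 RPKM (SD, n = 16). Of 18 tested genes that anchor or bind NO synthase, the sarcoglycans *Sgcd* and *Sgca* were at 0.27 (SE 0.25) and -0.18 (SE 0.15), the syntrophin *Sntb1* at 0.34 (SE 0.40) and the chaperone *Hsp90aa1* at -0.12 (SE 0.19), and the calmodulin gene *Calm3* had the highest level (308 ± 49.4 RPKM, SD, n = 16). No named gene of these lists passed the adjusted threshold.

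For body weight, the edgeR estimates of *Nos1* and *Nos3* were below 0, and whether they were called differed between tests. In the same fit, 0 of 10 members passed the adjusted threshold for body weight (0% of all genes), and 3 of 10 had an unadjusted p-value under 0.05, against 17.1% of all genes. The 3 estimates were below 0, a direction in which 12.3% of all genes had such a p-value. *Nos1* changed by -2.37 in log2 per 10 g (SE 0.56, 95% interval -3.56 to -1.19, unadjusted p = 0.0011 and adjusted p = 0.245 from edgeR). *Nos3* was at -0.92 (SE 0.34, unadjusted p = 0.0196, edgeR) and *Pde9a* at -0.77 (SE 0.36, unadjusted p = 0.0473, edgeR). The estimates of *Nos1* and *Nos3* were nearer to 0 with transcript length, described below, as a further covariate. Of the 58 tested genes of the 4 pathway lists described above, 10 had an unadjusted p-value under 0.05 for body weight, near the 17.1% of all genes, and 9 of these had an estimate below 0. One was the inducible NO synthase *Nos2*, which is no member and was named after its values were seen, was at -1.21 (SE 0.32, unadjusted p = 0.0016 and adjusted p = 0.245 from edgeR). The remaining members lay between -0.43 for *Prkg1* and 0.49 for *Pde3b*, with intervals that include 0. Cell type markers were read from the same fit (edgeR, unadjusted p under 0.05). Lower with weight were 2 of 10 muscle fiber, 3 of 10 endothelial and 4 of 10 smooth muscle and pericyte markers. Of 8 adipocyte markers, 0 were lower and 1 was higher. Whether the estimates of the members follow cell content was not tested. DESeq2 called *Nos1* (-0.23 in log2 per g, adjusted p = 0.0488) and gave no adjusted p-value for the other 9. It called 0.181% of all genes. That share counts genes without an adjusted p-value, so it is a lower bound for the share among genes given one.

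In edgeR, whether a member passed for body weight or cage depended on a single mouse. Without Npr1+/- replicate 3, edgeR called 2 members for body weight, *Nos1* (-0.31 in log2 per g, adjusted p = 0.0043) and *Nos3* (-0.14 in log2 per g, adjusted p = 0.0081), where 22.1% of all genes were then called. No other single mouse, when left out, gave a called member. With 0 of 10 members called for cage in all mice (0.0279% of all genes) and 1, *Nos1*, at an unadjusted p-value under 0.05 (p = 0.0493 from edgeR, 7.36% of all genes), the same omission gave 3 called members, *Pde2a* (adjusted p = 0.0265), *Nos3* (adjusted p = 0.0307) and *Nos1* (adjusted p = 0.0392), against 6.08% of all genes.

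Taken without covariates, log2 CPM was related to body weight past the adjusted threshold for 3 members, the lowest of which had an |r| that 2.99% of all genes reached. The relations to body weight and those to transcript length given next, 20 in all, were added after the data had been seen and share 1 Benjamini-Hochberg adjustment. *Pde9a* had r = -0.74 (permutation p = 0.0012, adjusted 0.0077) and rho = -0.76 (permutation p = 0.0011, adjusted 0.0081), with r = -0.66 without the 2 mice of most extreme weight and r = -0.58 for values centered on each cage. *Nos1* had r = -0.67 (permutation p = 0.0046, adjusted 0.0154) and rho = -0.65 (permutation p = 0.0076, adjusted 0.0293), with r = -0.64 without those 2 mice and -0.76 within cages. Without Npr1+/+ replicate 5, 2 members passed, and *Prkg1* was lost (adjusted permutation p = 0.0506). In all mice, *Prkg1* had r = -0.60 (permutation p = 0.01455, adjusted 0.0364) and rho = -0.57 (permutation p = 0.0234, adjusted 0.0584), with -0.71 and -0.55. Described by label, r was -0.78 in Npr1+/- and -0.34 in Npr1+/+ mice for *Nos1*, -0.85 and 0.27 for *Prkg1*, and -0.65 and -0.85 for *Pde9a*, and the difference between labels was not tested.

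The libraries differed in transcript length, and *Nos1* and *Nos3* moved with it. For each library, the slope of a gene's deviation from its mean log2 CPM on its log2 length was computed over all tested genes other than the members. This length slope ran from -0.193 to 0.317 under the Npr1+/- label and from -0.120 to 0.0435 under the Npr1+/+ label, with a difference of means of 0.0614 that did not exceed the spread (two-sided exact permutation test over 8008 splits, p = 0.431). The highest slopes, 0.317, 0.238 and 0.179, were those of Npr1+/- replicates 7, 6 and 5. These 3 mice also held the 3 highest levels of *Nos1* and of *Nos3*. Between the slope and body weight, r was -0.41 (permutation p = 0.109) and rho was -0.35 (permutation p = 0.184), neither of which was under 0.05. Without 2 mice r was -0.32, and within cages it was -0.55.

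*Nos3* followed the length slope with r = 0.87 (permutation p = 2e-05, adjusted 0.0004) and rho = 0.83 (permutation p = 0.00013, adjusted 0.0026), and with r = 0.78 without the 2 mice of most extreme slope and 0.89 within cages. *Nos1* did so with r = 0.85 (permutation p = 6e-05, adjusted 0.0006) and rho = 0.76 (permutation p = 0.0012, adjusted 0.0081), and with 0.71 and 0.84. *Gucy1a1* (r = 0.72, rho = 0.64), *Pde5a* (r = 0.72, rho = 0.70) and *Gucy1b1* (r = 0.63, rho = 0.59) also passed the adjusted threshold for r, with permutation p-values of 0.0019, 0.0023 and 0.0093. These 5 members stand against 46.8% of all genes that followed the slope at least as closely as *Gucy1b1*, a share from which nothing particular to the members can be read. The same number, 5, passed without Npr1+/+ replicate 5. *Vasp* (r = -0.49, rho = -0.48, permutation p = 0.0564) ran the opposite way without passing. Of all genes tested, 14.1% followed the slope at least as closely as *Nos3*. Of the members, *Nos3* has 4132 bases, *Nos1* 11151 and *Pde3b*, whose r was -0.20, 9114, against quartiles of 2489 and 6598 bases over all genes. With the length slope as a further covariate in edgeR, the body weight estimate of *Nos1* was -0.12 in log2 per g (unadjusted p = 0.0141, adjusted p = 0.761; 5.86% of all genes had an unadjusted p-value under 0.05) and that of *Nos3* was -0.0312 (unadjusted p = 0.210). Without cage and label in the comparison, removing the length slope from both measures left r with body weight at -0.66 for *Nos1* (from -0.67), -0.71 for *Pde9a* (from -0.74), -0.49 for *Prkg1* (from -0.60) and -0.04 for *Nos3* (from -0.38).

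**Figure D4:**
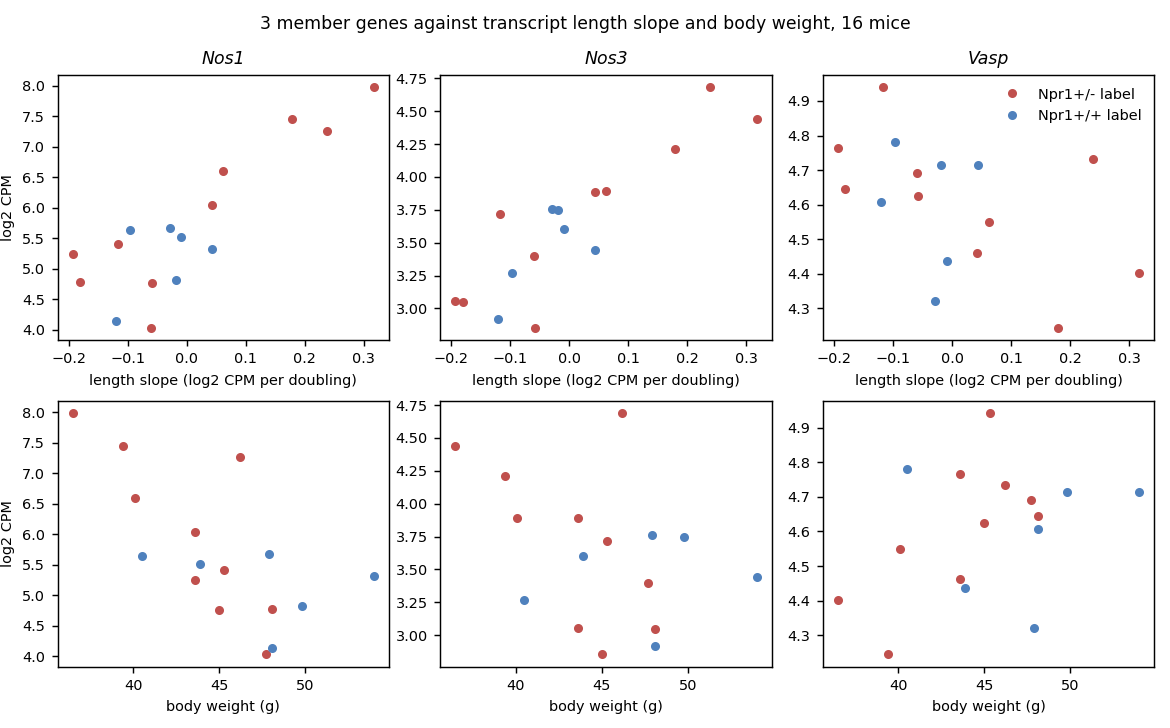
The top row plots log2 CPM of *Nos1*, *Nos3* and *Vasp* against the length slope of the library (log2 CPM per doubling of transcript length), the bottom row against body weight in g, with 1 point per mouse colored by *Npr1* label. *Nos1* and *Nos3* increase with the slope (r = 0.85 and 0.87) while *Vasp* does not (r = -0.49), and the 3 mice of highest slope are labelled Npr1+/-.

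Of 45 pairs of members, 4 were correlated across the 16 mice at an adjusted permutation p-value under 0.05. Over all tested genes, 11.9% of pairs had an |r| as high as the lowest of these 4, so the number of correlated pairs is no result about the members. The closest pair was *Gucy1a1* and *Pde5a*, a subunit of the NO-binding cyclase and an enzyme that removes its product, with r = 0.87 (permutation p = 3e-05, adjusted 0.0009) and rho = 0.85 (permutation p = 8e-05, adjusted 0.0018). Its r was 0.79 without the 2 mice of most extreme *Gucy1a1* and 0.73 once the length slope was removed from both genes. Within cages r was 0.79, which did not pass (adjusted permutation p = 0.129). *Gucy1b1* and *Pde5a* had r = 0.71 (permutation p = 0.0020, adjusted 0.0228) and rho = 0.72 (permutation p = 0.0023, adjusted 0.0351), with 0.73 without 2 mice, 0.48 with the slope removed, and 0.62 within cages, which did not pass (adjusted permutation p = 0.266). The cyclase subunits, by contrast, reached r = 0.62 (permutation p = 0.0103, adjusted 0.0927) and rho = 0.58 (permutation p = 0.0217, adjusted 0.114), which did not pass, whereas r was 0.73 and passed when CPM was scaled by library size only (adjusted permutation p = 0.0133).

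*Nos1* and *Nos3* had r = 0.85 (permutation p = 4e-05, adjusted 0.0009) and rho = 0.86 (permutation p = 2e-05, adjusted 0.0009), with 0.79 without 2 mice and 0.90 within cages, the 1 pair that passed there (adjusted permutation p = 0.0045). With the length slope removed, their r was 0.41, which no longer passed (adjusted permutation p = 0.459). *Prkg1* and *Nos1* had r = 0.78 (permutation p = 0.00041, adjusted 0.0062), but rho was 0.63 and did not pass (permutation p = 0.0101, adjusted 0.0910), and r was 0.57 without 2 mice. For this pair, r was 0.77 within cages, which did not pass (adjusted permutation p = 0.129), and 0.76 with the slope removed. The slope-removed values of *Gucy1a1* with *Pde5a* and of *Prkg1* with *Nos1* were the 2 of 45 that passed. Without Npr1+/+ replicate 5, 5 pairs passed, namely these 4 and *Gucy1b1* with *Vasp* (r = -0.75, adjusted permutation p = 0.0149).

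Bulk muscle holds several cell types, and in bulk RNA fewer cells of a type and less RNA per cell cannot be told apart. The summed level of the markers did not differ between labels by more than their overlap: 10 endothelial markers summed to 326 to 665 CPM under the Npr1+/- label and 333 to 439 CPM under the Npr1+/+ label, 10 markers of smooth muscle and pericytes to 964 to 1367 and 952 to 1124 CPM, and 8 adipocyte markers to 344 to 1253 and 507 to 1009 CPM. In level per length these lists were led by *Egfl7* (28.6 ± 7.11 RPKM), *Rgs5* (168 ± 31.0 RPKM) and *Fabp4* (101 ± 34.0 RPKM; SD, n = 16 each). Of lists not used for correlations, macrophages were led by *C1qa* (16.7 ± 6.89 RPKM), Schwann cells by *Pmp22* (23.3 ± 6.06 RPKM), and platelets by *Pf4* (5.09 ± 2.27 RPKM; SD, n = 16 each).

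Of 50 relations between a member and the mean of a marker list, 14 passed the adjusted threshold. Over all tested genes, 20.5% of relations to lists that do not hold the gene had an |r| as high as the lowest of these 14, and nothing particular to the members is read from the count. Fat cell markers and *Pde3b* had r = 0.87 (permutation p = 3e-05, adjusted 0.0008) and rho = 0.73 (permutation p = 0.0019, adjusted 0.0116), with 0.74 without 2 mice, 0.88 within cages and 0.87 with the length slope removed. The list does not hold *Pde3b*. Muscle fiber markers and *Nos1* had r = 0.86 (permutation p = 2e-05, adjusted 0.0008) and rho = 0.82 (permutation p = 0.0002, adjusted 0.0033), with 0.83, 0.86 and 0.84. These were the 2 of 50 that passed with the length slope removed. The fiber markers did not all move alike. Per 10 g of body weight in edgeR, log2 changes were -2.28 for *Myh1* and -2.08 for *Myh4*. They were 0.43 for *Mylpf* and 0.57 for *Pvalb*, with intervals that include 0. Relations of *Nos1* to single fiber markers were not tested. Slow fiber markers, led by *Myl3* (56.5 ± 16.8 RPKM; SD, n = 16), had no relation that passed.

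Vessel markers were related to *Nos1*, *Nos3*, both cyclase subunits and *Pde5a* in values not centered on cages. *Nos1* had r = 0.82 with endothelial markers (permutation p = 0.00012, adjusted 0.001; rho = 0.64, permutation p = 0.0093, adjusted 0.0380) and r = 0.85 with smooth muscle and pericyte markers (permutation p = 0.00012, adjusted 0.001; rho = 0.76, permutation p = 0.00098, adjusted 0.0082), and with the slope removed these were 0.21 and 0.36. *Nos3* passed with muscle fiber markers too (r = 0.73, permutation p = 0.0013, adjusted 0.0066; rho = 0.71, permutation p = 0.0026, adjusted 0.0143). *Nos3* had r = 0.87 with smooth muscle and pericyte markers (permutation p = 5e-05, adjusted 0.0008; rho = 0.84, permutation p = 0.0001, adjusted 0.0025) and r = 0.80 with endothelial markers (permutation p = 0.00022, adjusted 0.0016; rho = 0.65, permutation p = 0.0079, adjusted 0.0361). With the slope removed these were 0.42 and 0.04. *Gucy1a1* had r = 0.82 with smooth muscle and pericyte markers (permutation p = 0.00011, adjusted 0.001; rho = 0.86, permutation p = 6e-05, adjusted 0.0025), with 0.73 without 2 mice, 0.77 within cages and 0.57 with the slope removed. *Pde5a* had r = 0.75 with endothelial markers (permutation p = 0.0011, adjusted 0.0061; rho = 0.78, permutation p = 0.00075, adjusted 0.0075), and 0.33 with the slope removed. *Gucy1b1* had r = 0.62 with endothelial markers (permutation p = 0.0099, adjusted 0.0354; rho = 0.66, permutation p = 0.0058, adjusted 0.0291), and 0.16 with the slope removed. Within cages, the relations to endothelial markers of *Gucy1a1* (r = 0.70, adjusted permutation p = 0.0597), *Pde5a* (r = 0.63, adjusted permutation p = 0.0761) and *Gucy1b1* (r = 0.62, adjusted permutation p = 0.170) did not pass, whereas those of *Nos1* and *Nos3* to both vessel lists and those of *Gucy1a1* and *Pde5a* to smooth muscle and pericyte markers did. *Prkg1* (r = 0.65, permutation p = 0.0062, adjusted 0.0257; rho = 0.64, permutation p = 0.0099, adjusted 0.0380) and *Pde9a* (r = 0.63, permutation p = 0.0079, adjusted 0.0303; rho = 0.62, permutation p = 0.0122, adjusted 0.0436) passed with muscle fiber markers. Without the 2 mice of most extreme member level their r was 0.51 and 0.35, with the slope removed 0.50 and 0.61, and within cages 0.61 (adjusted permutation p = 0.0761) and 0.68 (adjusted permutation p = 0.0534), which did not pass. *Vasp* and *Pde2a* had no relation that passed. Without Npr1+/+ replicate 5, 13 of 50 relations passed.

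**Figure D5:**
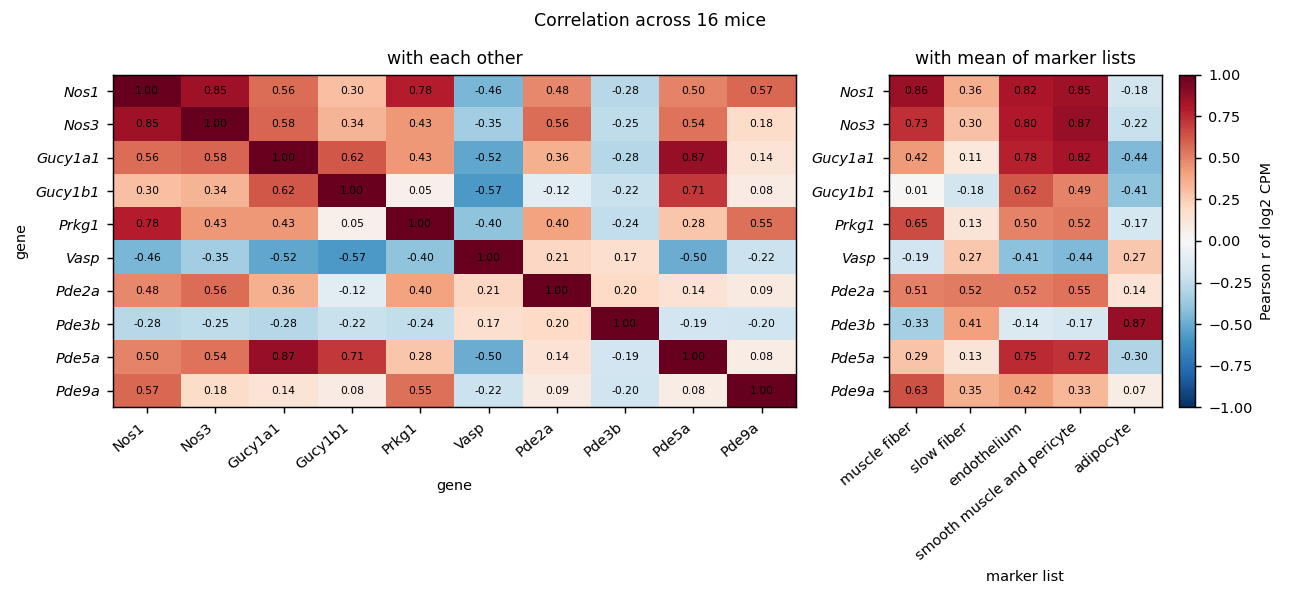
Each cell gives Pearson's r of log2 CPM across 16 mice, on the left between members and on the right between a member and the mean of a marker list. *Gucy1a1* with *Pde5a* (0.87) and *Nos1* with *Nos3* (0.85) are the highest pairs, and *Pde3b* stands out on the right by its r of 0.87 with adipocyte markers.

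The genes whose log2 CPM was most like that of a member over the 16 mice, out of 14317 ranked, are given as a description. For *Nos1* they were *Sptb*, *Speg* and *Prrc2a* (r from 0.98 to 0.99), of which *Sptb* encodes a spectrin of the membrane skeleton and *Speg* a kinase of striated muscle. *Nos3* was nearest to *Wfs1*, *Flna* and *Adgrg1* (r = 0.95 each). *Gucy1a1* was nearest to *Zfp704*, *Tjp1* and *Ablim1* (0.92 each), and *Gucy1b1* to *Zzz3*, *Zfp174* and *Nup107* (0.87 to 0.89). *Prkg1* was nearest to *Gbp7*, *Ppp1r3a* and *Hipk2* (0.88 to 0.89). *Pde5a* was nearest to *Nfat5*, *Cpd* and *Ccnt1* (0.94 to 0.96). The genes nearest to *Pde3b* were *Prkar2b*, *Trarg1* and *Cidec* (0.89 to 0.93), and *Cidec*, a lipid droplet gene, is in the adipocyte list. Lower values were found for *Pde9a* (*Ntng2*, *Cited2* and *Farsa*, 0.81 to 0.85), *Vasp* (*Chadl*, *Prss55* and *Dusp13*, 0.75 to 0.84) and *Pde2a* (*Rfx2*, *Creb3l1* and *Gpsm1*, 0.78 to 0.83).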

How the data were processed

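Skeletal muscle mRNA of 16 mice was sequenced, 1 library per mouse. The authors deposited raw counts of fragments per gene, mapped to GRCm38 with STAR (2.7.2b in the submitters' processing notes) and counted on GENCODE M24 genes with featureCounts (1.6.4 in the same notes) where both ends aligned. The labels name a Tecan Universal Plus kit and the paper a TruSeq Stranded protocol, so whether counting used strand is uncertain. The gene length deposited beside the counts was used for RPKM and the length slope. Of 55471 identifiers, 55144 had a symbol in GENCODE M21.

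The filter was filterByExpr, TMM set the scale, and edgeR 4.0.16 gave the test (glmQLFit, robust = TRUE, legacy = TRUE) under R 4.3.3, fitted on label, cage and body weight, following the study's methods, with Benjamini-Hochberg adjustment over all 14331 genes and a threshold of 0.05. Log2 CPM used a prior count of 2, permutation tests 100000 resamples, and intervals are 95% Wald intervals. DESeq2 1.42.0 and limma 3.58.1 served as alternatives, beside other covariates, size factors and filters and leaving out each mouse. The length slope and tests with it were added after the data were seen. The fit was also run on simulated data, with an outcome that is not reported here. The members and gene lists were chosen with earlier results of these data known. The named genes are the 10 members, *Npr1*, the 2 genes of smallest p-value in each direction per pathway list, the 3 genes most like each member and the marker of highest level per list. Named outside this rule are *Nos2*, *Myl7* and the fiber markers *Myh1*, *Myh4* and *Mylpf*. A shared replicate number does not mark a shared animal. Intervals cover the spread between mice, and the depth of 15273472 to 59682677 counts left *Pde2a* and *Pde9a* with the lowest counts. Without Npr1+/+ replicate 5, in which *Alb* was high, correlations were repeated after the data were seen.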

Additional observations from a re-analysis of the deposited data

Results flagged for a closer look

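*Pde9a* in the mouse labelled Npr1+/-, replicate 8, was far below the other 9 mice of its label, at -0.69 in log2 CPM where the next lowest was at 0.49, and this value rests on 9 counts. It was the only distant mouse among 24 groups examined (each of the 10 genes, *Npr1* and the subunit ratio in each label). Chance gives a distant mouse in about 1 in 20 groups, and 1 among 24 is near that rate.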

How the results depend on the processing

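The count of 0 members called between labels held under every alternative run, as did the 0 of the other pathway genes. For body weight, DESeq2 called 1 member, the permutation test of r without covariates 3, and leaving out single mice gave 0 to 2 members (0 to 3 for cage), where the 2 and 3 came without Npr1+/- replicate 3 and the cause was not tested. Correlated pairs numbered 1 with cage-centered values and 2 with the length slope removed, against 4, and relations to markers numbered 9 and 2, against 14.

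None of the estimates that changed sign was called. Between labels, *Pde9a* was at 0.29 with the label alone, 0.24 with cage only, 0.23 with a replicate block and 0.27 in the exact test. *Pde5a* was at -0.21 with weight only, -0.049 with the replicate block, -0.054 with the length slope and -0.094 in the exact test. *Vasp* was at -0.039 with cage only, *Gucy1a1* at -0.020 and *Gucy1b1* at -0.051 with weight only, and *Nos3* at -0.019 with the length slope. Per g of body weight, *Gucy1b1* was at 0.0020 with RLE factors, 0.0079 by library size and 0.0018 in DESeq2, and *Pde2a* at 0.0094 in limma-voom. With the length slope, *Gucy1a1* was at 0.0154, *Gucy1b1* at 0.0206, *Pde5a* at 0.0430 and *Pde2a* at 0.0270. With the slope and without Npr1+/- replicate 3, they were at 0.0218 (*Gucy1a1*), 0.0626 (*Gucy1b1*) and 0.0573 (*Pde5a*), with *Pde3b* at -0.0117 and *Vasp* at -0.0248.

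Leaving out each mouse gave label estimates of -0.13 to 0.34 (*Gucy1a1*), -0.0013 to 0.24 (*Gucy1b1*), -0.22 to 0.73 (*Nos1*), -0.11 to 0.33 (*Nos3*), -0.26 to 0.55 (*Pde3b*), -0.32 to 0.23 (*Pde5a*), -0.15 to 0.16 (*Pde9a*), 0.09 to 0.46 (*Prkg1*, lowest without Npr1+/- replicate 5), 0.40 to 0.89 (*Pde2a*, likewise), -0.13 to 0.22 (*Vasp*) and -0.022 to 0.14 (subunit ratio), and body weight estimates per g of -0.0361 to 0.0101 (*Gucy1a1*), -0.0129 to 0.0159 (*Gucy1b1*), -0.0450 to 0.0254 (*Pde5a*) and -0.110 to 0.0029 (*Pde2a*). Without Npr1+/+ replicate 4, *Pde3b* was at 0.55 and *Pde5a* at -0.32.

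The replicate numbers do not mark shared animals, since same-numbered mice of the labels differed in body weight. Deviations of same-numbered mice correlated by 0.0779 on average over 6 pairs (0.0328 to 0.170), against -0.0082 on average for other pairs. That difference was not tested, and the replicate block called 0 members. The lowest counts were those of *Pde2a* and *Pde9a*, at 5 and 9.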
